A study of Mus musculus with 6 samples.

Results

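The genes described here are 33 mouse genes of the integrated stress response. They are Atf4 itself and genes that its product, the transcription factor ATF4, is known to switch on. They were taken from textbook knowledge of the pathway, with earlier results of these data known. Each was located by its RefSeq span on mm10. The strand came from the RefSeq promoter table for 29 of them. For Eif4ebp1, Aldh1l2, Cth and Slc7a5 it was inferred from the strand of introns that lie in that gene alone. All 33 had introns in the deposited tables, 269 introns of 219945, and the tables held introns of 24897 genes in all. The genes fall into 15 stress-signal genes, 12 genes of serine, folate-linked and amino acid synthesis, and 6 amino acid transport genes.

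VGB6, a line of mouse embryonic stem (ES) cells, was the source of all 6 libraries, which were made from polyA-selected RNA. Wild-type cells (labelled P2, P3 and P5) gave 3 libraries, and cells with a knockout of Zrsr2, an X-linked gene for a factor that recognises the 3' splice site of U12-type introns, gave 3 more (also P2, P3 and P5). The letter P is not explained, and the numbers are used here as replicate numbers. The labels state no treatment or stress agent, do not say whether the knockout is 1 clone, and do not name separate cultures for the libraries of a group. The spread that the p-values rest on may therefore be technical or may lie between cultures. It exceeded counting error, with a chi-square per degree of freedom between libraries of a group from 17.4 to 88.0. Its source was not tested.

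In the integrated stress response, kinases that sense amino acid shortage, unfolded protein, viral RNA or lack of heme phosphorylate the initiation factor eIF2. General translation then slows while ATF4 mRNA is translated more, through short open reading frames upstream of its coding sequence. ATF4 pairs with other bZIP proteins such as C/EBP factors, binds a composite site called the C/EBP-ATF response element, and induces genes that make and import amino acids, further transcription factors, and brakes that restore translation. Control of ATF4 at the level of translation is not visible in RNA levels of Atf4 itself.

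The composite site is shown for the genes that carry it near their start, since it is what many of these genes are known for. TGATGNAA was searched on both strands in RefSeq promoter windows (GRCm38.p6), from 250 bases before to 50 bases after each start site the table lists, so a gene can have several windows, and 29 of the 33 genes had at least 1. Of these, 11 (37.9%) held the letters, against 1219 of 27025 genes (4.51%). The more specific form TGATGCAA, whose matches are all matches of TGATGNAA as well, was in 8 of the 29 (27.6%) and in 279 genes (1.03%). Apart from Atf4 itself, the genes were chosen as known ATF4 targets, so this share describes the choice. A match of letters is not a measured binding site. Each sequence is given 5' to 3' on the strand of its gene, with the match in capitals. A match that reads TTGCATCA or TTACATCA is the same site on the opposite strand. The amino acid genes and the transporter come before the signal genes.
Asns: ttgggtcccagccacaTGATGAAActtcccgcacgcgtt
Pycr1: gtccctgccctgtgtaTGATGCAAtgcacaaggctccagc
Pck2: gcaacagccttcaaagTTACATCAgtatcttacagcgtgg
Slc7a11: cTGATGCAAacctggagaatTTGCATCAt
Vldlr: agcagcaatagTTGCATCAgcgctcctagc
Nupr1: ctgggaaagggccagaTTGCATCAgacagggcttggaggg
Jdp2: atagccggggcTGATGCAAcccgtcccgcc
Atf3: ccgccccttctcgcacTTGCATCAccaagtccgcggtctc
Chac1: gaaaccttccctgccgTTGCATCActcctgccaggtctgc
Herpud1: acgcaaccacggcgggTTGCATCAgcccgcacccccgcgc
Trib3: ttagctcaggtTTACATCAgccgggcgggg
The match began 23 bases before the start of Asns on the minus strand of chromosome 6, in the window chr6:7693210-7693248. That of Pycr1 began 103 bases before the start, in chr11:120643828-120643867 on the minus strand. For Vldlr, Jdp2 and Slc7a11 the start site of the window is an internal one, inside the gene span used here for the levels. The match of Vldlr lay 200 bases before a start site at base 27217020, which is 540 bases inside its span, in chr19:27216809-27216838 on the plus strand. Slc7a11 was the gene with a pair of matches, on opposite strands, in chr3:50443652-50443680 on the minus strand of the chromosome. They lay 66 and 47 bases before a start site at base 50443613, which is 55474 bases inside its span. That of Jdp2 lay 33 bases before a start site 760 bases inside its span. The match of Trib3 lay after the start.

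A gene's level is given here as its spliced reads, summed over its listed introns, per 1000000 spliced reads of the library (below, RPM). It grows with the number of introns, so levels of different genes are compared only by the level of the most-read intron of each. The libraries held between 19801687 and 63623214 spliced reads, with wild-type replicate 2 and knockout replicate 3 (31391313) the shallowest of their groups. Zrsr2 itself was at 33.3, 38.9 and 33.5 RPM in wild type and at 0.533, 0.382 and 0 in the knockout libraries, a log2 change of −6.70 (SE 0.59, edgeR adjusted p = 0.0218). The knockout replicate with 0 reads of Zrsr2 allows up to 3 reads by counting error. Of the ES cell markers, 7 of 8 were tested, and their sum lay between 1850 and 2077 RPM in the 6 libraries, but single markers differed. In that list 5 were below 0 and 2 above (median −0.32). At an unadjusted p under 0.05, 2 of the 7 were lower (5.97% of all genes) and 1 higher (3.99% of all genes). The log2 change was −0.58 for Nanog (SE 0.24, edgeR adjusted p = 0.497), −0.32 for Tdgf1 (SE 0.08, edgeR adjusted p = 0.403) and 0.47 for Pou5f1 (SE 0.18, edgeR adjusted p = 0.485). Fibroblast markers (7 of 8 tested) summed to 331, 147 and 82.7 RPM in wild type and to 354, 226 and 47.0 in knockout, with 2 below and 5 above 0. Endoderm markers (2 of 6 tested, Gata4 and Gata6) were sparse, at 3.08, 2.18 and 3.88 RPM in wild type and 1.95, 1.43 and 1.27 in knockout. These sums over the 6 listed markers did not overlap between the groups, nor did the levels of Gata6 (8.59% of all genes were lower without overlap). The levels of Gata4 did overlap, with knockout replicate 2 (1.34) above wild-type replicate 3 (1.19). Gata4 and Gata6 were both lower at an unadjusted p under 0.05 (log2 change −1.01 and −1.43), as were 5.97% of all genes. Trophectoderm markers (5 of 6 tested) summed to 106, 129 and 189 RPM in wild type and 197, 132 and 85.2 in knockout. Of the 5 tested, 3 were below 0, 1 of them at an unadjusted p under 0.05 (5.97% of all genes), and 2 above. None of the listed markers with introns was at 0 in all libraries. The part of cell state and of other cell types in the values below was not tested.

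Of the genes of amino acid and serine synthesis 11 of 12 had a log2 change below 0, of the signal genes 10 of 15 and of the transporters 4 of 6. Differences between these roles were not tested. None of the 33 passed the edgeR quasi-likelihood test at an adjusted p under 0.05 (0.0177% of the 16950 genes tested passed), and none passed in any of 15 fits, DESeq2 included. At an unadjusted p under 0.05, 9 of 33 were lower (27.3%, against 5.97% of all genes) and 1 was higher (3.99% of all genes). The log2 change was below 0 in 25 of 33 (75.8%, against 50.9% of all genes). The median was −0.27 over the 33 genes, −0.32 over the 7 ES cell markers above and −0.01 over all genes. The groups did not overlap, with knockout the lower, in 9 of 33 (8.59% of all genes) and, with knockout the higher, in 2 of 33 (6.67%). With TMM factors in the levels these were 8 (8.07% of all genes) and 2 (7.3%). In these bulk samples, fewer cells of a kind and less RNA per cell cannot be told apart.

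**Figure D1:**
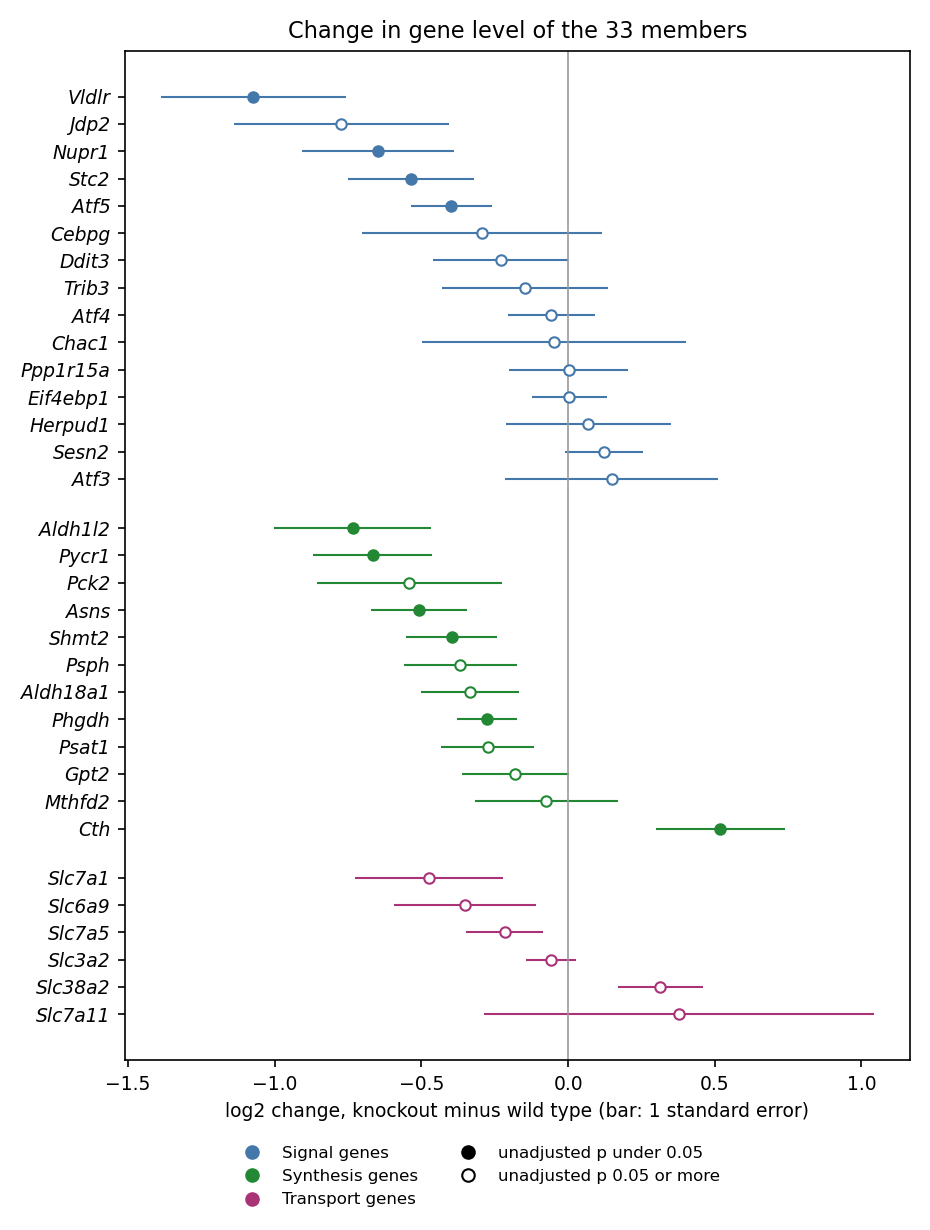
Log2 change of the gene level (knockout minus wild type, edgeR) for each of the 33 genes on the horizontal axis, by role and in order of size, with bars of 1 standard error. Filled points mark an unadjusted p under 0.05, and in the synthesis genes 11 of 12 points lie left of 0, with Cth on the right.

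The 12 synthesis genes had the lowest median of the 3 groups, −0.35. Of them 11 were below 0 (91.7%, against 50.9% of all genes). At an unadjusted p under 0.05, 5 were lower (41.7%, against 5.97% of all genes) and 1 was higher (8.33%, against 3.99%). In 6 of the 12 the groups did not overlap, with knockout the lower (8.59% of all genes), and in 5 of the 12 with TMM factors (8.07% of all genes). Without single libraries, 10 of the 12 were below 0 in each of the 6 fits that left out 1 library. The summed level of the group was 2498, 2032 and 2152 RPM in wild-type replicates 2, 3 and 5. It was 1779, 1441 and 2075 in knockout replicates 2, 3 and 5, so the groups overlapped by replicate 5. The means were 2227 ± 242 and 1765 ± 317 (SD, n = 3 each).

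Asns encodes asparagine synthetase, which makes asparagine from aspartate and glutamine, and lies at chromosome 6, 7675165 to 7693209, on the minus strand. Its level was 445, 360 and 497 RPM in wild-type replicates 2, 3 and 5. The knockout libraries had 287, 243 and 358. All 3 knockout libraries lay below the lowest wild-type library, by a narrow margin for knockout replicate 5. The mean was 434.2 ± 69.1 in wild type and 295.7 ± 58.0 in knockout (SD, n = 3), which is 0.681 of wild type, with a log2 change of −0.51 (SE 0.16, edgeR adjusted p = 0.471). DESeq2 gave an adjusted p of 0.118.

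Pycr1, the mitochondrial enzyme of the last step of proline synthesis, lies at chromosome 11, 120638998 to 120643748, on the minus strand. It was at 42.3, 29.0 and 50.3 RPM in wild type and at 25.0, 20.6 and 28.4 in knockout. The groups did not overlap, though wild-type replicate 3 and knockout replicate 5 were close. The log2 change came to −0.67 (SE 0.20, edgeR adjusted p = 0.469; DESeq2 adjusted p = 0.0811). Aldh18a1, the enzyme before it in the same pathway, had 205, 162 and 165 in wild type and 145, 106 and 159 in knockout. Its groups did not overlap on this scale but did after TMM scaling, and its log2 change came to −0.33 (SE 0.17, edgeR adjusted p = 0.511).

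The serine route starts with Phgdh, phosphoglycerate dehydrogenase, at chromosome 3, 98313171 to 98339969. Phgdh was at 352, 320 and 336 RPM in wild type and at 283, 239 and 286 in knockout. Its groups were well apart for their spread, with means of 335.9 ± 16.2 and 269.6 ± 26.2 (SD, n = 3), although the log2 change was small at −0.28 (SE 0.10, edgeR adjusted p = 0.485). Psat1, the aminotransferase of the next step and the synthesis gene with the highest level at its most-read intron (61.8 RPM in wild type, against 50.6 for Phgdh), was at 490, 402 and 398 in wild type. In knockout it was at 340, 280 and 416, so replicate 5 lay among the wild-type libraries, and the log2 change came to −0.27 (SE 0.16, edgeR adjusted p = 0.549). Psph, the phosphatase that completes the route, had a log2 change of −0.37 (SE 0.19) and knockout replicate 5 above 2 of the wild-type libraries.

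Of the mitochondrial folate enzymes, Shmt2, which splits serine into glycine and a folate-bound carbon unit, was at 384, 303 and 310 RPM in wild type. It was at 243, 201 and 291 in knockout, all below wild type, with a log2 change of −0.40 (SE 0.15, edgeR adjusted p = 0.485). Mthfd2, which acts on the carbon unit next, did not show the same: it was at 192, 142 and 122 in wild type and 149, 95.7 and 175 in knockout, with a log2 change of −0.07 (SE 0.24). Aldh1l2, which releases the carbon unit as carbon dioxide with NADPH, was low, at 7.88, 7.53 and 6.15 in wild type and 2.86, 5.61 and 4.23 in knockout. Its groups did not overlap (log2 change −0.73, SE 0.27, edgeR adjusted p = 0.485). Since 16 of its 23 introns lie also in another gene's span and the strand setting of the counting is not given in the sources used here, its reads may be shared.

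Cth, cystathionine gamma-lyase, which makes cysteine from cystathionine, was the exception in direction. It lies at chromosome 3, 157894248 to 157925081, on the minus strand, and was at 111, 120 and 66.3 RPM in wild type and at 128, 134 and 154 in knockout. All knockout libraries lay above all wild-type libraries, with wild-type replicate 5 far below the other wild-type libraries. The log2 change came to 0.52 (SE 0.22, edgeR adjusted p = 0.497), and without wild-type replicate 5 or another single library it ranged from 0.28 to 0.71. The remaining pair, Gpt2 (alanine from pyruvate) and Pck2 (mitochondrial phosphoenolpyruvate carboxykinase), had overlapping groups and log2 changes of −0.18 (SE 0.18) and −0.54 (SE 0.32).

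**Figure D2:**
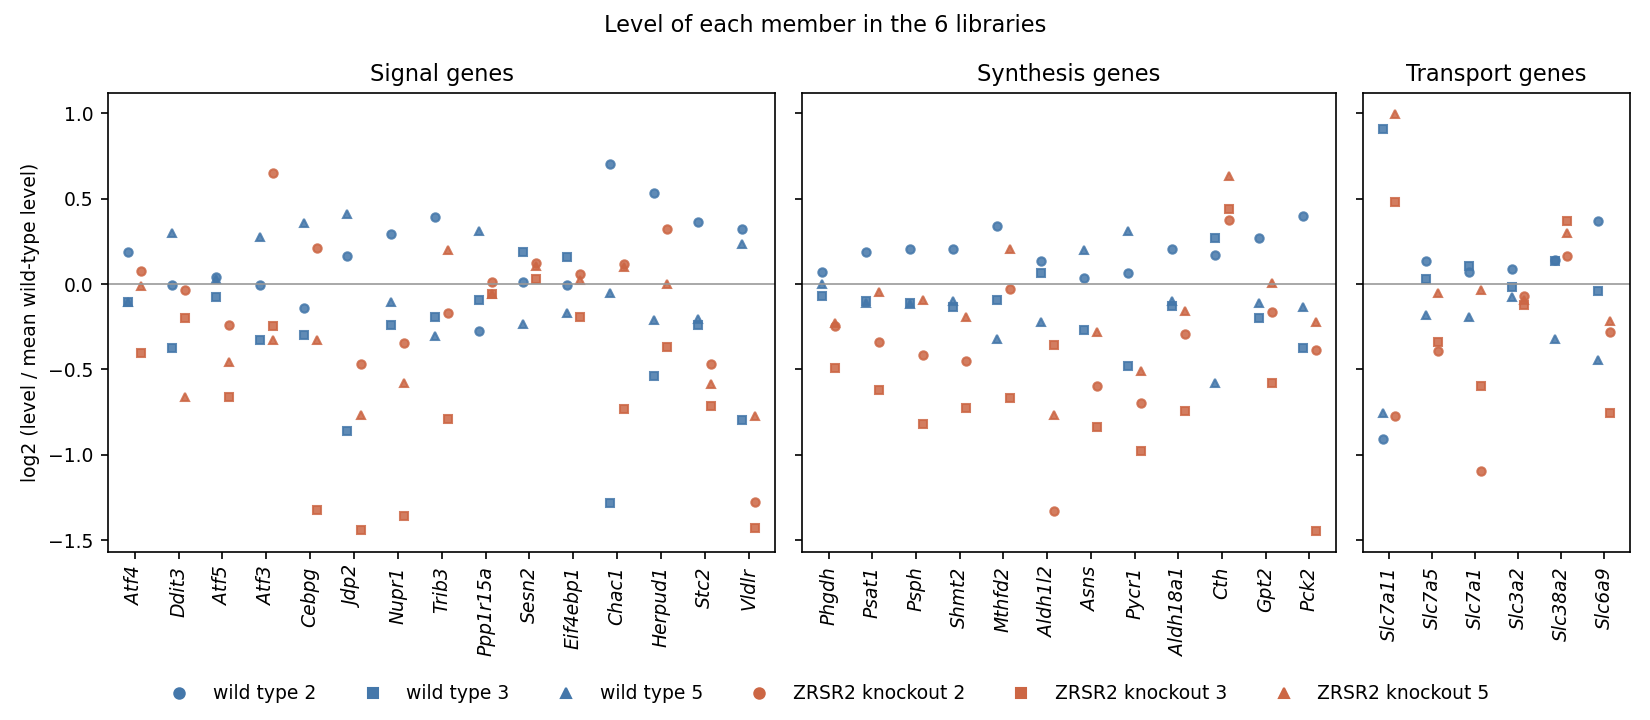
Level of each of the 33 genes in the 6 libraries, as the log2 of the level over the mean wild-type level of that gene (vertical axis), with genes by role along the horizontal axis, colour for genotype and shape for replicate number. In Asns, Phgdh and Shmt2 all 3 knockout points lie below the wild-type points, in Cth they lie above, and in Atf4 they mix.

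Of the 15 signal genes, 10 were below 0 (66.7%, against 50.9% of all genes), and the median was −0.15. At an unadjusted p under 0.05, 4 were lower (26.7%, against 5.97% of all genes) and 0 higher. The groups did not overlap, with knockout the lower, in 3 of the 15 (8.59% of all genes). With TMM factors in the levels this was also 3 of the 15 (8.07% of all genes). The summed level was 683, 633 and 578 RPM in wild type and 645, 512 and 616 in knockout, with the groups overlapping.

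The transcription factors are taken first. Atf4, at chromosome 15, 80255184 to 80257545, on the plus strand, was at 172, 141 and 141 RPM in wild type and at 159, 114 and 150 in knockout. The groups overlapped, with means of 151.2 ± 18.3 and 141.1 ± 23.6 (SD, n = 3) and a log2 change of −0.06 (SE 0.15, edgeR adjusted p = 0.901). Ddit3, which encodes the stress factor CHOP, at chromosome 10, 127290793 to 127296291, was at 8.43, 6.55 and 10.4 in wild type and 8.29, 7.39 and 5.36 in knockout. It too overlapped (log2 change −0.23, SE 0.23, edgeR adjusted p = 0.726). By the most-read intron in wild type, Atf4 (80.3 RPM) stood far above Ddit3 (2.91).

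Atf5, a bZIP factor related to ATF4 and translated in a similar way, was the most closely measured of the 4 signal genes that were lower at an unadjusted p under 0.05. It lies at chromosome 7, 44812256 to 44816658, on the minus strand, and was at 30.0, 27.6 and 29.8 RPM in wild type and at 24.7, 18.4 and 21.2 in knockout. The groups did not overlap, with means of 29.1 ± 1.32 and 21.4 ± 3.13 (SD, n = 3) and a log2 change of −0.40 (SE 0.14, edgeR adjusted p = 0.485). The other bZIP genes, Atf3, Cebpg and Jdp2, reached at most 7.12 RPM in any library and overlapped, with log2 changes of 0.15 (SE 0.36), −0.29 (SE 0.41) and −0.77 (SE 0.37). Nupr1, a small stress-induced chromatin protein, was at 32.2, 22.3 and 24.5 in wild type and 20.8, 10.3 and 17.6 in knockout. Its groups were apart by a small gap (log2 change −0.65, SE 0.26, edgeR adjusted p = 0.494), and both of its 2 introns lie also in another gene's span, so that its reads may be shared as well.

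Among the other signal genes, Eif4ebp1, the inhibitor of the cap-binding factor eIF4E, had the highest most-read intron of all 33 genes (131 RPM in wild type). It was at 219, 245 and 195 in wild type and at 229, 192 and 224 in knockout. The levels were interleaved, and the log2 change was under its SE of 0.13 (edgeR adjusted p = 0.993). Ppp1r15a, the GADD34 subunit that directs dephosphorylation of eIF2, ranged from 4.60 to 6.90 in wild type and from 5.35 to 5.62 in knockout. Trib3, a pseudokinase that binds ATF4, had a log2 change of −0.15 (SE 0.28), and Sesn2, an amino acid sensor upstream of mTORC1, one of 0.12 (SE 0.13). For both the groups overlapped.

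Of the remaining signal genes, Chac1, which degrades glutathione, and Herpud1, a component of endoplasmic reticulum protein degradation, overlapped widely, with log2 changes of −0.05 (SE 0.45) and 0.07 (SE 0.28). Stc2, a secreted glycoprotein induced by endoplasmic reticulum stress, was at 10.4, 6.82 and 6.99 RPM in wild type and at 5.82, 4.91 and 5.36 in knockout. All knockout values lay below wild type (log2 change −0.54, SE 0.21, edgeR adjusted p = 0.493). Vldlr, a lipoprotein receptor gene at chromosome 19, 27216480 to 27254231, on the plus strand, had the lowest log2 change of the 33. It was at 12.3, 5.68 and 11.6 in wild type and at 4.07, 3.66 and 5.79 in knockout, so wild-type replicate 3 lay within the knockout values. The log2 change came to −1.07 (SE 0.32, edgeR adjusted p = 0.460; DESeq2 adjusted p = 0.0609), and all 20 Vldlr introns lie also in the span of another gene, which makes its reads uncertain in the same way.

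The 6 transporters had a median of −0.14, with 4 below 0 and 0 at an unadjusted p under 0.05 in either direction. Their summed level was 1105, 1052 and 888 RPM in wild type and 937, 993 and 1053 in knockout, with the groups overlapping. Slc7a11, the cystine-glutamate exchanger, was close to silent: 0.354, 1.24 and 0.393 in wild type and 0.388, 0.924 and 1.32 in knockout, from 7 to 70 reads a library. At this depth no difference was detectable (log2 change 0.38, SE 0.67, edgeR adjusted p = 0.846). This gene carried the pair of composite-site matches shown above.

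Slc3a2, the shared heavy chain that brings several light-chain transporters to the cell surface, and Slc7a5, a light chain for large neutral amino acids, had the highest most-read introns of the transporters (54.8 and 50.7 RPM in wild type). Slc3a2 was at 346, 323 and 309 in wild type and 311, 299 and 305 in knockout (log2 change −0.06, SE 0.09, edgeR adjusted p = 0.812). Slc7a5 was at 340, 315 and 273 in wild type and 235, 245 and 298 in knockout (log2 change −0.22, SE 0.13, edgeR adjusted p = 0.565). Both pairs of groups overlapped. Slc38a2, a sodium-coupled transporter of small neutral amino acids, was the transporter without overlap: 350, 348 and 254 in wild type and 356, 409 and 390 in knockout. Knockout replicate 2 exceeded wild-type replicate 2 only slightly, and the log2 change came to 0.31 (SE 0.14, edgeR adjusted p = 0.498). Slc7a1, a carrier of cationic amino acids, and Slc6a9, a glycine transporter, overlapped, with log2 changes of −0.47 (SE 0.25) and −0.35 (SE 0.24).

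Across the 33 genes the extremes gathered in 2 libraries. Wild-type replicate 2 was the highest of the 6 libraries in 20 genes (60.6%, against 16.8% of all genes tested). Knockout replicate 3 was the lowest in 21 genes (63.6%, against 15.99% of all genes). In the synthesis genes wild-type replicate 2 was the highest in 9 of 12 and knockout replicate 3 the lowest in 10 of 12. The median log2 distance of the 33 genes from the wild-type mean was 0.16, −0.11 and −0.11 in wild-type replicates 2, 3 and 5 and −0.25, −0.62 and −0.10 in the knockout replicates. Knockout replicate 5 thus sat beside wild-type replicates 3 and 5 by this measure. Over all genes the same medians lay between −0.08 and 0.04. Both extreme libraries were also the shallowest of their group, and the part of depth in these values was not tested. Without wild-type replicate 2 the count of genes lower at an unadjusted p under 0.05 went from 9 to 3, and without knockout replicate 3 it went to 4. Leaving out these libraries in the same order gave medians of −0.18 and −0.16 over the 33 genes. Asns, Pycr1 and Vldlr were the 3 genes that stayed under an unadjusted p of 0.05 in each of the 6 fits without 1 library.

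**Figure D3:**
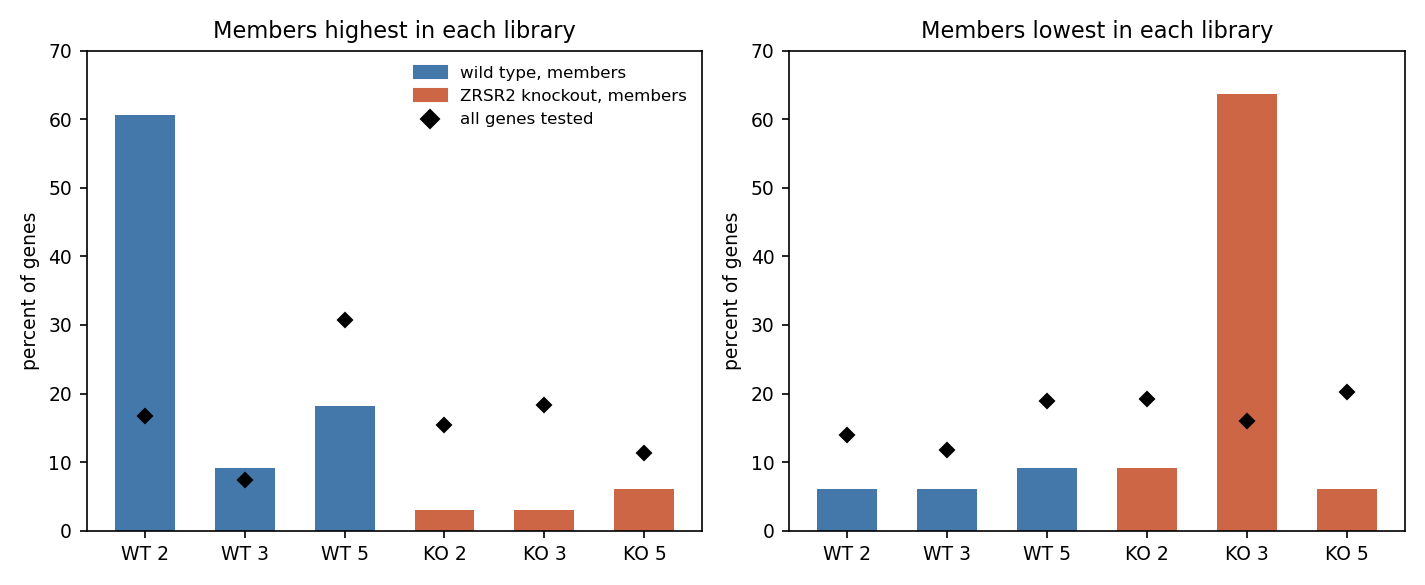
Percent of the 33 genes (bars) for which each library had the highest level of the 6 (left panel) or the lowest (right panel), with the same percent over all 16950 genes tested as diamonds. Wild-type replicate 2 was the highest in 60.6% of the 33 genes and knockout replicate 3 the lowest in 63.6%.

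Genes with the composite-site letters and genes without them are given side by side as a description. Of the 11 with a match, 8 were below 0, with a median log2 change of −0.51. Of the 18 without one, 15 were below 0, with a median of −0.28. At an unadjusted p under 0.05, 4 of the 11 and 4 of the 18 were lower, against 5.97% of all genes. Asns, Pycr1, Nupr1 and Vldlr were those with a match, and Atf5, Stc2, Phgdh and Shmt2 those without.

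Splicing of the members' own introns was read from the percentage of unspliced reads (MSI: reads over the 2 exon-intron boundaries as a percentage of those reads plus 2 times the spliced reads). Pooled over the 269 introns, the wild-type libraries had 1.49%, 1.33% and 1.34% and the knockout libraries 1.32%, 1.65% and 1.42%. All introns together gave 1.74%, 1.75% and 1.65% in the wild-type libraries, and 1.56%, 1.89% and 1.72% in the knockout ones. Knockout replicate 3 was the highest library in both, and the groups overlapped in both. Of the 269 introns, 204 had the 20 reads in every sample that the test asked for, and none passed an edgeR adjusted p under 0.05 (0.0273% of the 95371 introns tested passed). At an unadjusted p under 0.05, 8 were higher in knockout (3.92%, against 2.03% of all introns) and 3 were lower (1.47%, against 2.11%). The median log2 odds of unspliced to spliced reads was 0.05 for members and 0.02 for all introns. Atf3, Vldlr, Aldh1l2 and Slc7a11 had no intron deep enough to test.

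The 5 member introns with the smallest p in the edgeR test each had an edgeR adjusted p of 1. None had more than 43 unspliced reads in a library. The counts below are raw and not scaled for library depth or gene level, while the log2 odds are relative to the spliced reads. That of Slc7a1 and the second of Shmt2 had at most 8. In Slc7a1, the intron at chromosome 5, 148342156 to 148342737, had 0, 0 and 3 unspliced reads in wild type and 1, 7 and 4 in knockout (log2 odds 2.69, SE 0.97). The 86-base intron of Pck2 at chromosome 14, 55543774 to 55543859, went the other way, with 11, 20 and 15 in wild type and 10, 0 and 3 in knockout (log2 odds −1.48, SE 0.55). Nupr1 had 12, 13 and 19 in wild type and 30, 17 and 10 in knockout at chromosome 7, 126623580 to 126624889 (log2 odds 1.09, SE 0.42). Shmt2 was the gene that appeared more than once. Its intron at chromosome 10, 127517917 to 127518024, had 18, 32 and 14 unspliced reads in wild type and 43, 22 and 24 in knockout (log2 odds 0.88, SE 0.35). Its intron at chromosome 10, 127518133 to 127518224, had 4, 3 and 1 in wild type and 7, 8 and 4 in knockout (log2 odds 1.63, SE 0.66). Over the whole of Shmt2 wild-type libraries had an MSI of 3.39%, 2.89% and 3.05%, and knockout libraries one of 3.43%, 4.15% and 3.48%. Its groups did not overlap but nearly touched. Slc7a1 was also higher without overlap (1.12%, 1.37% and 1.43% in wild type, 1.52%, 2.32% and 1.67% in knockout). Herpud1 (2.51%, 2.74% and 2.33%, then 2.05%, 2.11% and 2.14%) and Chac1 (1.02%, 0.287% and 0.216%, then 0.198%, 0% and 0%) were lower without overlap. The share of all genes without overlap in MSI was not determined.

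A few member introns held much unspliced signal in wild-type and knockout libraries alike. An intron of Psph at chromosome 5, 129765899 to 129770605, had a pooled MSI of 17.4% in wild type and 24.1% in knockout, from 125 reads in all, too few for the test. In Slc6a9, the intron at chromosome 4, 117864643 to 117864753, had 18.7%, 10.8% and 14.3% in wild type and 17.6%, 9.80% and 18.2% in knockout (log2 odds 0.19, SE 0.59). Ddit3 held 2 such introns. The one at chromosome 10, 127295479 to 127295722, had 11.3%, 21.6% and 8.39% in wild type and 13.6%, 9.76% and 23.6% in knockout (log2 odds 0.22, SE 0.45). The other, at 127293760 to 127295320, had 15.6%, 14.2% and 10.5% in wild type and 12.0%, 11.2% and 15.6% in knockout (log2 odds −0.02, SE 0.43). Herpud1 had one at chromosome 8, 94392525 to 94393795, with pooled values of 10.3% in wild type and 8.45% in knockout (log2 odds −0.32, SE 0.45). In each of the 4 tested introns the groups overlapped.

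**Figure D4:**
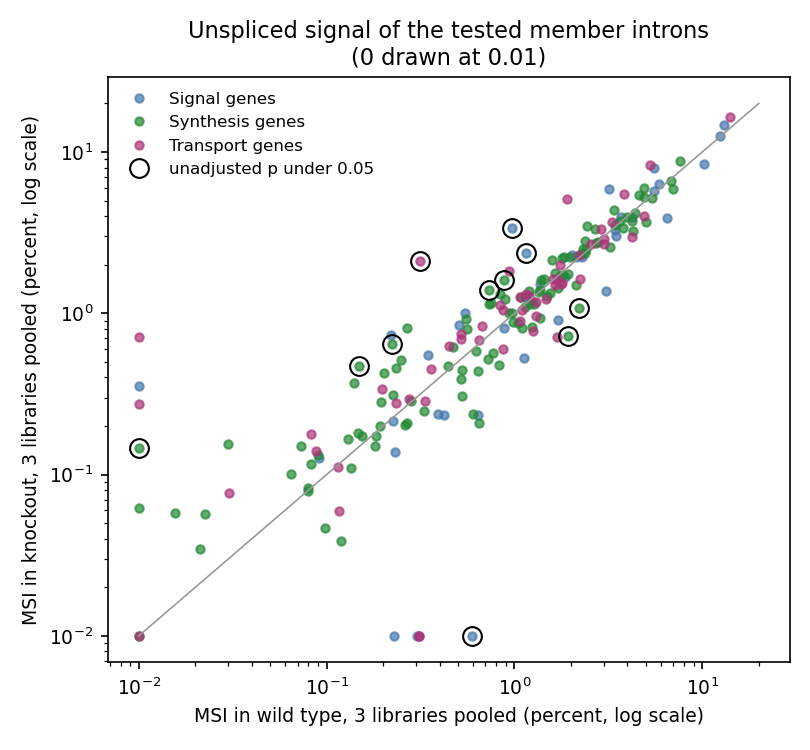
MSI in percent, pooled over the 3 libraries of a group, in wild type (horizontal log axis) against knockout (vertical log axis) for the 204 tested introns of the 33 genes, coloured by role, with 0 drawn at 0.01 and the line marking equal values. The points scatter about the line, and the 11 with an unadjusted p under 0.05 (circles) lie on both sides of it.

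The rest of the pathway was described with 8 lists of 122 distinct genes measured, and no gene of any list passed an adjusted p under 0.05 in edgeR or in DESeq2. Of the 11 genes for eIF2 kinases and their regulators, 8 were below 0 (median −0.08). At an unadjusted p under 0.05, 1 was higher (3.99% of all genes). The level of Impact, an inhibitor of the kinase GCN2, was 98.9 ± 12.9 RPM in wild type and 90.8 ± 1.17 in knockout, and that of Gcn1, its activator, 390.5 ± 18.7 and 370 ± 57.9 (SD, n = 3). The subunits of eIF2 and its exchange factor eIF2B and related initiation factors had 9 of 10 log2 changes above 0 (median 0.21, against −0.01 over all genes), 3 of them at an unadjusted p under 0.05 (3.99% of all genes were higher so). Among these, Eif2s1, the subunit that is phosphorylated, was at 244.7 ± 27.8 in wild type and 279.4 ± 15.6 in knockout (SD, n = 3). Eif2s2 was at 941.5 ± 12.1 and 964 ± 140 (SD, n = 3).

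In the ATF6 and XBP1 arm of the unfolded protein response, which is separate from ATF4, 13 of 21 genes were below 0 (median −0.03). At an unadjusted p under 0.05, 0 were lower (5.97% of all genes) and 2 higher (3.99% of all genes). Its chaperones Hsp90b1 (1010 ± 179 in wild type, 860.6 ± 40.6 in knockout) and Calr (836.8 ± 114 and 721.9 ± 69.4, SD, n = 3) differed between groups by about 1 wild-type SD or less. The 20 cytosolic aminoacyl-tRNA synthetases, several of which ATF4 is known to induce, had 8 below 0 and 12 above (median 0.03). Of these, 0 were lower and 1 was higher at an unadjusted p under 0.05 (5.97% and 3.99% of all genes). Nars was at 794 ± 122 in wild type and 684 ± 110 in knockout and Gars at 775 ± 89.2 and 718 ± 88.5 (SD, n = 3).

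The other 17 folate and methionine cycle genes had 6 below 0 and 11 above (median 0.10). At an unadjusted p under 0.05, 1 was lower (5.97% of all genes) and 3 were higher (3.99% of all genes). The cytosolic folate enzyme Mthfd1 was at 974 ± 58.8 RPM in wild type and 1106 ± 19.6 in knockout, and Mat2a, which makes S-adenosylmethionine, at 227 ± 62.3 and 271 ± 63.7 (SD, n = 3). The mTORC1 list, with 20 genes tested, had 10 below and 10 above 0 (median −0.01). At an unadjusted p under 0.05, 5 of the 20 were lower (5.97% of all genes) and 2 higher (3.99% of all genes). Of this list, Eif4e, the cap-binding factor, was at 182 ± 8.36 in wild type and 189 ± 15.1 in knockout (SD, n = 3). Ddit4 (REDD1), a stress-induced mTORC1 inhibitor, was at 95.6, 21.4 and 74.9 in wild type and 28.6, 14.7 and 10.3 in knockout. Wild-type replicate 3 lay within the knockout values, and the log2 change came to −1.77 (SE 0.54, edgeR adjusted p = 0.469).

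NRF2 targets, which share Slc7a11 with ATF4, were split evenly, 7 below and 7 above 0. At an unadjusted p under 0.05, 0 of them were lower (5.97% of all genes) and 1 was higher (3.99% of all genes). Txnrd1 was at 1267 ± 159 RPM in wild type and 1119 ± 242 in knockout, and Tkt at 726 ± 33.4 and 675 ± 27.2 (SD, n = 3). Of 17 genes listed as bZIP partners of ATF4, 10 were tested, with 4 below and 6 above 0 (median 0.09) and 0 at an unadjusted p under 0.05. Cebpz, whose product is not a bZIP protein despite its name, was among those above 0 (log2 change 0.25, SE 0.12, edgeR adjusted p = 0.499). Nfe2l1 was at 95.9 ± 2.73 in wild type and 88.3 ± 3.14 in knockout, and Atf1 at 74.0 ± 14.6 and 85.4 ± 8.46 (SD, n = 3). The other 7, the Jun and C/EBP genes Jun, Junb, Jund, Cebpa, Cebpb and Cebpd and the gene Maf, were not analysed here, since a gene level from introns needs a listed intron.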

How the data were processed

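Per the labels' protocols, polyA-selected RNA of VGB6 ES cells was sequenced. The aligner, the counter, its strand setting and the source of the introns: not given in the sources used here. The name mm10 is the build per the submitters' processing notes. The authors deposited, per intron and library, raw read counts named A1, A2 and Exon, a percent named MSI and a fraction named CovFrac (not used). The MSI percent deposited by the authors equalled 100 × (A1 + A2) / (A1 + A2 + 2 × Exon), so A1 + A2 were read as unspliced and Exon as spliced reads. That reading comes from this relation, not from a stated definition.

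Introns were given to genes by position in RefSeq (GRCm38.p6), with 13057 of 219945 in no gene on their strand. Gene counts (summed Exon) went into edgeR 4.0.16 under R 4.3.3 (filterByExpr, TMM, quasi-likelihood test, Benjamini-Hochberg adjusted p under 0.05). Intron retention was tested as the edgeR interaction of read kind with genotype, for introns with at least 20 reads in every sample. DESeq2 1.42.0 and limma 3.58.1 were alternatives. Reads at neighbouring introns are not independent, so counting floors of 3 reads cover counting error only. All 6 libraries entered each comparison, grouped by title, and the fits were tested on simulated data.

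The 33 genes and the lists were chosen with earlier results of these data known. Values in every library are given for genes with an unadjusted p under 0.05 or no overlap of the groups, for Atf4, Ddit3, Asns and Slc7a11, and for the 2 highest genes of each role by most-read intron. Other lists name the 2 highest genes by most-read intron. Mthfd2 and the markers named were added after their values were seen. Introns named are the 5 with the smallest p and those with at least 100 reads and a pooled wild-type MSI of at least 10 percent. Left-out libraries, other scalings, filters, single-gene introns and the most-read intron were tried as alternatives.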

Additional observations from a re-analysis of the deposited data

How the results depend on the processing

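No member passed an adjusted p under 0.05 in any of the 15 gene fits, and no member intron did in any intron fit. Without single libraries, the genes lower at an unadjusted p under 0.05 numbered from 3 to 11, those higher from 0 to 2, those below 0 from 20 to 29, and the introns under 0.05 from 7 (without knockout replicate 3) to 15. The higher count was 2 with DESeq2 and 2 without a count filter. The median log2 change ranged from −0.35 to −0.16 without single libraries. DESeq2 called 222 of 13647 genes at an adjusted p under 0.05, against 3 in edgeR, none a member. Same-numbered libraries of the groups (replicates 2, 3 and 5) deviated together with correlations of 0.064, 0.068 and 0.017. Wild-type replicate 5 correlated better with knockout replicate 2 (0.058). Fibroblast marker sums fell from replicate 2 to 3 to 5 in wild type (331, 147 and 82.7 RPM) and in knockout (354, 226 and 47.0). Trophectoderm marker sums rose in that order in wild type (106, 129 and 189) and fell in knockout (197, 132 and 85.2). Neither these sums nor correlations this small can show whether libraries of the same number are paired. The main fits used no pairing, so a factor shared by libraries of the same number would be left in their spread. With the replicate block 12 members were lower at an unadjusted p under 0.05, the median was −0.28, Chac1 turned to 0.072, and 7 introns were under 0.05 (limma). Without TMM factors Ppp1r15a was −0.039 and Eif4ebp1 −0.031, and without a count filter Ppp1r15a was −0.0033. By the most-read intron Atf3 was −0.042, Ppp1r15a −0.031 and Mthfd2 0.0050. Without single libraries the log2 change crossed 0 for Atf4 (−0.15 to 0.090), Trib3 (−0.40 to 0.091), Ppp1r15a (−0.12 to 0.16), Eif4ebp1 (−0.090 to 0.12), Chac1 (−0.42 to 0.47), Mthfd2 (−0.28 to 0.15), Herpud1 (−0.12 to 0.41), Atf3 (−0.25 to 0.32), Cebpg (−0.69 to 0.030) and Slc7a11 (−0.065 to 1.27). The log2 odds crossed 0 for the introns of Ddit3 at 127293760 (−0.24 to 0.089) and 127295479 (−0.20 to 0.76) and of Slc6a9 (−0.030 to 0.40). The cause of these shifts was not tested. Low depth limits Slc7a11, Atf3, Cebpg and the unspliced reads of most introns.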

Other observations

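Further genes were chosen here after their values were seen, with levels in spliced reads per 1000000 of the library. Eif2ak2, the kinase PKR that phosphorylates eIF2 upon binding double-stranded RNA, was at 14.5, 14.4 and 17.9 in wild type. It was at 32.3 and 39.1 in knockout replicates 2 and 3 but at 14.9 in knockout replicate 5, which lay within wild type (log2 change 0.92, SE 0.30, edgeR adjusted p = 0.479). Eif2b1, a regulatory subunit of the exchange factor eIF2B, was at 92.4, 110.4 and 79.6 in wild type and at 109.2, 128.1 and 124.2 in knockout. Its groups overlapped narrowly (log2 change 0.39, SE 0.15, edgeR adjusted p = 0.485).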
